A study of Mus musculus with 6 samples.

Results

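Cyclic nucleotide phosphodiesterases are the enzymes that break down cAMP and cGMP, the second messengers made by adenylyl and guanylyl cyclases. Each family has its own substrate preference and regulator: the Pde1 enzymes hydrolyse both nucleotides and are switched on by calcium and calmodulin, Pde2a hydrolyses both and is stimulated by cGMP, the Pde4, Pde7 and Pde8 enzymes are specific for cAMP, and Pde10a hydrolyses both. In forebrain neurons these enzymes set how long and how far a signal from a G protein-coupled receptor or from nitric oxide spreads. Pde10a and Pde1b are best known for their abundance in the medium spiny neurons of the striatum, and Pde2a for its abundance in cortex, hippocampus and striatum.

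The genes examined were 10 of the 37620 listed: Pde1a, Pde1b, Pde1c, Pde2a, Pde4a, Pde4b, Pde4d, Pde7b, Pde8b and Pde10a. Of these, 9 were found by their symbol and Pde4d by its identifier. The mice were C57Bl/6 animals 9 weeks old that received intraperitoneal saline (mice 1, 6 and 10) or ketamine at 30 mg/kg (mice 3, 5 and 9) once a day for 5 days. Ketamine is a blocker of the NMDA-type glutamate receptor. Total RNA from pre-limbic cortex, a part of the medial prefrontal cortex, was sequenced 2 days after the last injection, 1 library per mouse and 3 libraries per group. The study's methods describe the animals as male. The comparison asks how transcript levels in this tissue differed after repeated ketamine.

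The libraries held between 26273436 and 32643726 reads counted in genes. Slc17a7, the vesicular glutamate transporter that marks cortical excitatory neurons, lay between 22152 and 49417 normalized counts in every library, so that marker of the labelled tissue was present in all 6. Markers of other regions differed between the libraries. Summed over 20 markers of striatal projection neurons, normalized counts were 16556 to 18171 in saline mice and 94972, 50407 and 17282 in ketamine mice 3, 5 and 9. Of these markers only Isl1 was at 0 in any library, in saline mice 1 and 6, and all 20 had a higher mean after ketamine. Summed over 10 olfactory bulb markers, they were 273 to 938 in saline mice and 2625, 1544 and 12144 in ketamine mice 3, 5 and 9. All 10 had a higher mean after ketamine, and only Barhl2 was at 0 in any library, in saline mouse 6. The 12 cortical excitatory neuron markers, 11 of them lower after ketamine, summed to 57927 to 83175 in saline mice. In ketamine mice 3, 5 and 9 they summed to 38130, 64731 and 55020, and the groups overlapped. The 8 GABAergic neuron markers, all with a higher mean after ketamine, summed to 25884 to 30353 in saline mice and 53861, 35139 and 46063 in ketamine mice 3, 5 and 9, without overlap. The saline mice differed too: 8 oligodendrocyte markers summed to 391778 in saline mouse 10 and to 46812 to 167529 in the other 5 libraries. In such bulk samples fewer cells of a type and less RNA per cell cannot be told apart. Ketamine mice 3 and 5 therefore stand apart from the others in striatal markers, ketamine mouse 9 in olfactory bulb markers and saline mouse 10 in oligodendrocyte markers. Results that rest on these mice are given with and without them.

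Promoters are shown for 4 members: Pde10a, Pde1b and Pde7b, which were highest in ketamine mice 3 and 5, and Pde4b, which hardly differed between groups. Pde1c and Pde8b were also highest in those mice and are not shown, and Pde4b was itself highest in ketamine mouse 3. Each promoter is the 250 bases upstream of the gene's first listed start in RefSeq (build GRCm38.p6, a later build than that of the counts). They lie at chr17:8801495-8801744 (plus strand) for Pde10a, chr15:103502784-103503033 (plus) for Pde1b, chr10:20548329-20548578 (minus) for Pde7b and chr4:102421305-102421554 (plus) for Pde4b. Capitals mark a GC box (GGGCGG or its reverse complement CCGCCC) or the short form of the cAMP response element (TGACG or CGTCA).
Pde10a: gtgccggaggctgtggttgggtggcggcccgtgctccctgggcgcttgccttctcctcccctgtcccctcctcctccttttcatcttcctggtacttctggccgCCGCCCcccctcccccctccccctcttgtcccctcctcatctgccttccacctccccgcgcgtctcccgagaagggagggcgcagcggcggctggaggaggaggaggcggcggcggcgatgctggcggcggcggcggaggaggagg
Pde1b: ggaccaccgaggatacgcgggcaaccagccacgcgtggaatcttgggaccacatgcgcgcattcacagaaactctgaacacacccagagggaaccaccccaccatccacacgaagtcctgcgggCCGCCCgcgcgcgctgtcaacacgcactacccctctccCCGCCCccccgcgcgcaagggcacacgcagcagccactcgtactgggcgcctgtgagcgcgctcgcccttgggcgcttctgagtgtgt
Pde7b: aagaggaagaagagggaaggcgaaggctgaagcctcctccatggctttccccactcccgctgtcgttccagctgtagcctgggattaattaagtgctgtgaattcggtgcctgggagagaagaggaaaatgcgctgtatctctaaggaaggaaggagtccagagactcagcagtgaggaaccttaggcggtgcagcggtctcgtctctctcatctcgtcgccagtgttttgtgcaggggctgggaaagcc
Pde4b: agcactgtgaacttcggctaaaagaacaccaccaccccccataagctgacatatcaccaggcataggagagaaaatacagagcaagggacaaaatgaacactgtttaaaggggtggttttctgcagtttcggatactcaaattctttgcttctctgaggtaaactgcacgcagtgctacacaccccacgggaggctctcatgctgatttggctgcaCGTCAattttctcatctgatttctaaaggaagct
The Pde10a promoter holds 1 GC box, that of Pde1b holds 2, that of Pde7b holds neither motif, and that of Pde4b holds 1 short element whose first base lies 34 bases upstream of the start. GC content is 72.8% for Pde10a, 67.2% for Pde1b, 55.2% for Pde7b and 46.0% for Pde4b, against a median of 52.4% over all 32851 promoters scanned. At the first listed start, the promoter of Pde8b holds 4 GC boxes (77.6% GC) and that of Pde1c neither motif (58.0% GC). The 10 members have 31 listed starts, and 7 of these promoters, in 5 genes, hold a GC box, against 32.7% of all promoters. The short element is in 3 of the 31 (Pde1a, Pde4a and Pde4b), against 17.8% of all, and the full element TGACGTCA, which contains the short one, is in 0 of the 31, against 1.55% of all. Which start each gene used in these libraries was not measured, and a match to these letters is a description only.

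None of the 10 members passed an adjusted p of 0.05 in the comparison of ketamine with saline mice by limma on log2(normalized count + 1), where 0.0% of the 16127 tested genes did (0 called, with 937 genes or 5.81% at an unadjusted p under 0.05). All 10 were abundant enough to be tested. By edgeR 0 members and 0.0% of genes were called, and by DESeq2 0 members and 1.13% of genes (0.901% higher and 0.23% lower). At an unadjusted p under 0.05 each of the 3 tools gave 2 members, Pde1b and Pde1c, against 5.81% of genes by limma, 6.24% by edgeR and 6.54% by DESeq2. The fold change was above 0 for 6 members and below 0 for 4, with a median log2 fold change of 0.054, against -0.014 over all tested genes. The members' values differed widely between the ketamine mice.

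**Figure D1:**
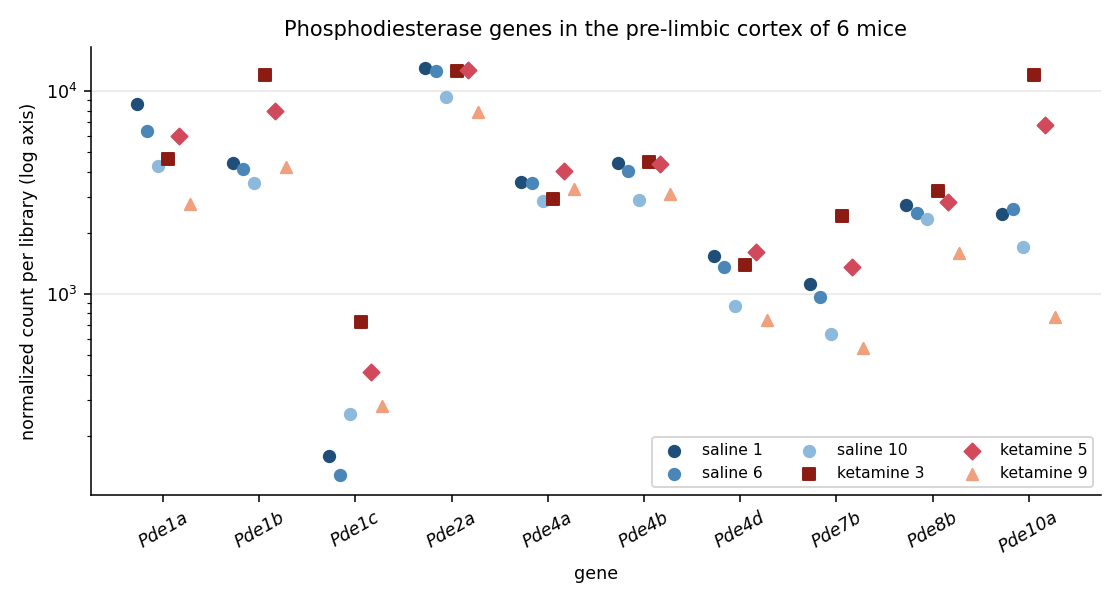
Normalized counts (log axis) of the 10 phosphodiesterase genes, 1 point per library, with saline mice 1, 6 and 10 in blue circles and ketamine mice 3, 5 and 9 in red to orange squares, diamonds and triangles. The points of Pde10a spread most, from 764 in ketamine mouse 9 to 11922 in ketamine mouse 3, while those of Pde4a stay between 2863 and 4028.

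Pde10a had the widest range of the members. Its gene lies at chr17:8718237-9179513 on the plus strand (mm9). The saline mice held 2470.4, 2625 and 1695.5 normalized counts (mice 1, 6 and 10), and the ketamine mice 11922, 6756 and 764.1 (mice 3, 5 and 9). The highest library was 15.6 times the lowest, and both were ketamine mice. The means were 2264 ± 498 in saline and 6480 ± 5580 in ketamine (SD, n = 3 each), with a log2 fold change of 0.83 (SE 0.92, 95% interval -1.33 to 2.98, adjusted p = 0.999 by limma) and an exact two-sided permutation p of 0.4. The log2 fold change was 1.54 by edgeR (adjusted p = 0.931) and 1.53 by DESeq2 (adjusted p = 1.0), and it was 0.031 by limma without ketamine mouse 3 alone and 2.01 without ketamine mouse 9 alone. With 3 mice a group the test cannot give a permutation p below 0.1. Against the saline mean, Pde10a was 5.27-fold in ketamine mouse 3, 2.98-fold in mouse 5 and 0.338-fold in mouse 9. The direction of the group difference thus hung on which ketamine mice were kept. Without ketamine mice 3 and 5, which leaves 1 ketamine mouse, the log2 fold change was -1.54. Without saline mouse 10 and ketamine mouse 9, which leaves 2 mice a group, it was 1.82 (adjusted p = 0.0211 by limma). Saline mouse 10 and ketamine mouse 9 were the lowest libraries for Pde10a. Leaving them out therefore narrows the spread within each group, and this p is not an independent test.

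The Pde1 genes encode the calcium/calmodulin-activated enzymes, and they did not share a direction. Pde1b (chr15:103333465-103360483, plus strand), the form abundant in striatal medium spiny neurons, gave 4417, 4101 and 3518 normalized counts in saline mice and 12016.5, 7925 and 4224 in ketamine mice. Mice 3 and 5 were above every saline mouse and mouse 9 lay within the saline range. Scaled by total reads and exon length instead (RPKM), Pde1b was at 33.1, 32.1 and 28.6 in saline and 99.4, 63.2 and 35.5 in ketamine mice, with mouse 9 just above the saline range and no overlap. The mean was 2.01-fold higher after ketamine, at 8055 ± 3900 against 4012 ± 456 (SD, n = 3 each). On the log2 scale the difference was 0.89 (SE 0.35, 95% interval 0.059 to 1.71, adjusted p = 0.821 by limma). DESeq2 gave a log2 fold change of 1.01 and an adjusted p of 0.19. Without ketamine mice 3 and 5 the log2 fold change was 0.081.

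Pde1c (chr6:56019815-56319628, minus strand), whose enzyme has high affinity for both nucleotides, was the least abundant member. It gave 158, 128 and 257 normalized counts in saline mice and 727, 412 and 281 in ketamine mice. In normalized counts it was the 1 member whose groups did not overlap, as were those of 5.69% of tested genes with ketamine above saline, 4.66% with ketamine below and 10.3% in either direction. The mean was 2.61-fold higher after ketamine, at 473 ± 229 against 181 ± 67.3 (SD, n = 3 each). On the log2 scale the difference was 1.33 (SE 0.39, 95% interval 0.41 to 2.26). The adjusted p was 0.619 by limma, 0.579 by edgeR and 0.0613 by DESeq2. Its exact permutation p was 0.1, the smallest possible here. Without ketamine mice 3 and 5 the log2 fold change of Pde1c was 0.69 (adjusted p = 0.397 by limma), which rests on ketamine mouse 9 alone, at 281 against 257 in the highest saline mouse.

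Pde1a (chr2:79674610-79969632, minus strand), the form most associated with cortical and hippocampal pyramidal cells, leaned the other way. Saline mice held 8625, 6359 and 4286 normalized counts and ketamine mice 4611, 6008 and 2769. The groups overlapped, with ketamine mouse 9 lowest and saline mouse 1 highest. The log2 fold change was -0.54 (SE 0.34, 95% interval -1.35 to 0.27, adjusted p = 0.999 by limma), and it stayed below 0 when any single mouse was left out (-0.80 to -0.23).

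Pde2a (chr7:108570212-108661340, plus strand), the cGMP-stimulated enzyme, was the most abundant member. Its saline mice held 12999.7, 12509 and 9287 normalized counts and its ketamine mice 12471, 12681 and 7898. Saline mouse 10 and ketamine mouse 9 were low and the other 4 mice lay close together. The log2 fold change was -0.091 (SE 0.23, 95% interval -0.64 to 0.46, adjusted p = 0.999 by limma), an interval that leaves room for a difference in either direction.

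The Pde4 genes encode the rolipram-sensitive cAMP-specific enzymes. Pde4a (chr9:20970158-21017692, plus strand) was the steadiest member, at 3569, 3527 and 2863 normalized counts in saline and 2946, 4028 and 3266 in ketamine mice. Its log2 fold change was 0.035 (SE 0.17, 95% interval -0.35 to 0.42). Pde4b (chr4:101760148-102279864, plus strand) stood at 4409, 4013 and 2909 in saline and 4437, 4343.5 and 3111 in ketamine mice, with a log2 fold change of 0.073 (SE 0.21, 95% interval -0.43 to 0.57). For Pde4b saline mouse 10 and ketamine mouse 9 were the lowest libraries and the other 4 lay within 4013 to 4437. The adjusted p was 0.999 for both genes by limma.

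Pde4d needed more care, since no row carried its symbol. GENCODE M1 gives the name Pde4d to 2 identifiers: the whole locus at chr13:109240142-110743669 and a separate model of 1 transcript at chr13:110744317-110746171, just downstream on the same plus strand. The locus was used here, and it held 1539, 1359.8 and 872 normalized counts in saline and 1386, 1600.2 and 743 in ketamine mice. Its log2 fold change was -0.049 (SE 0.33, 95% interval -0.83 to 0.73, adjusted p = 0.999 by limma). The downstream model held 901, 931 and 762 in saline and 803, 817 and 1525.5 in ketamine mice. It gave 0.51 to 0.874 reads per read of the locus in 5 libraries and 2.05 in ketamine mouse 9, so the library lowest for the locus was highest for the model. 

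Pde7b and Pde8b encode cAMP-specific enzymes that rolipram does not inhibit. Pde7b (chr10:20117810-20444884, minus strand), which is expressed in striatum, held 1123, 960.3 and 636 normalized counts in saline and 2418, 1355 and 538 in ketamine mice. Ketamine mouse 3 was highest and ketamine mouse 9 lowest of all 6, as for Pde10a. The log2 fold change was 0.45 (SE 0.52, 95% interval -0.76 to 1.67, adjusted p = 0.999 by limma), and it was -0.71 without ketamine mice 3 and 5 and -0.046 without ketamine mouse 3 alone. Pde8b (chr13:95794409-96020291, minus strand) held 2753, 2497 and 2343 in saline and 3214, 2840.2 and 1589 in ketamine mice. Its means were nearly equal (2531 ± 207 and 2548 ± 851, SD, n = 3 each), while its SD was larger in the ketamine mice. The log2 fold change of Pde8b was -0.050 (SE 0.26, 95% interval -0.67 to 0.56, adjusted p = 0.999 by limma).

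**Figure D2:**
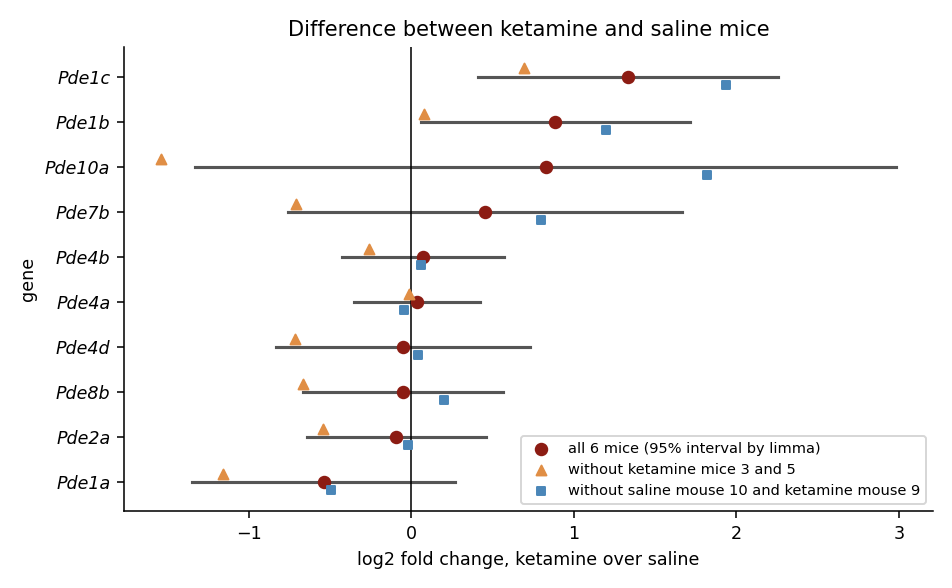
Log2 fold change of ketamine over saline for each gene, with its 95% interval by limma over all 6 mice (red point and line), without ketamine mice 3 and 5 (orange triangle) and without saline mouse 10 and ketamine mouse 9 (blue square). For Pde10a the triangle lies at -1.54 and the square at 1.82, the widest gap of the 10 genes.

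The same order of mice recurred across members. In 5 of the 10 (Pde1b, Pde1c, Pde7b, Pde8b and Pde10a) ketamine mice 3 and 5 were above the other 4 mice, as they were in 9.94% of tested genes and in 4 of the 9 other phosphodiesterase genes tested. In 7 of the 10 (Pde1a, Pde2a, Pde4b, Pde4d, Pde7b, Pde8b and Pde10a) ketamine mouse 9 and saline mouse 10 were the 2 lowest, as in 16.6% of tested genes and in 0 of the 9 others. Ketamine mouse 9 alone was lowest in 6 of the 10, against 29.1% of tested genes and 5 of the 9 others. Ketamine mouse 3 was highest in 6 of the 10 (Pde1b, Pde1c, Pde4b, Pde7b, Pde8b and Pde10a), against 15.1% of tested genes and 3 of the 9 others. These orders were noticed in the members and then counted, so the shares are descriptions.

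Several other measures moved with these orders, and their part in the values above was not tested. The median striatal marker was 9.84-fold its saline mean in ketamine mouse 3, 3.97-fold in mouse 5 and 1.01-fold in mouse 9. The same order of the ketamine mice held for Pde10a, Pde1c, Pde1b, Pde7b, Pde8b and Pde4b. Their folds in mouse 3 were smaller (5.27, 4.02, 3.0, 2.67, 1.27 and 1.17). The GABAergic markers were raised in all 3 ketamine mice, with a median of 2.68-fold, 1.72-fold and 2.98-fold in mice 3, 5 and 9, as Pde1c was (4.02, 2.27 and 1.55). The median cortical excitatory marker was 0.449-fold, 0.804-fold and 0.754-fold in those mice, where Pde1a was 0.718-fold, 0.935-fold and 0.431-fold. The median olfactory bulb marker was 7.67-fold, 2.74-fold and 31.7-fold in ketamine mice 3, 5 and 9, where Pde10a was 5.27-fold, 2.98-fold and 0.338-fold. Gene length moved with mouse 9 as well. Tested genes with exons of 5 kb or more together had a median log2 deviation of -0.279 from the mean of the 6 libraries in ketamine mouse 9 and of -0.039 to 0.135 in the other 5, and genes with exons under 2 kb one of 0.28 in mouse 9. Among genes spanning 200 kb or more the deviation in mouse 9 was -0.394. Of the 10 members, 8 have exons of 5 kb or more together, as do 4777 of the 16093 tested genes with a length. A span of 200 kb or more is found in 7 members and in 912 of those genes.

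**Figure D3:**
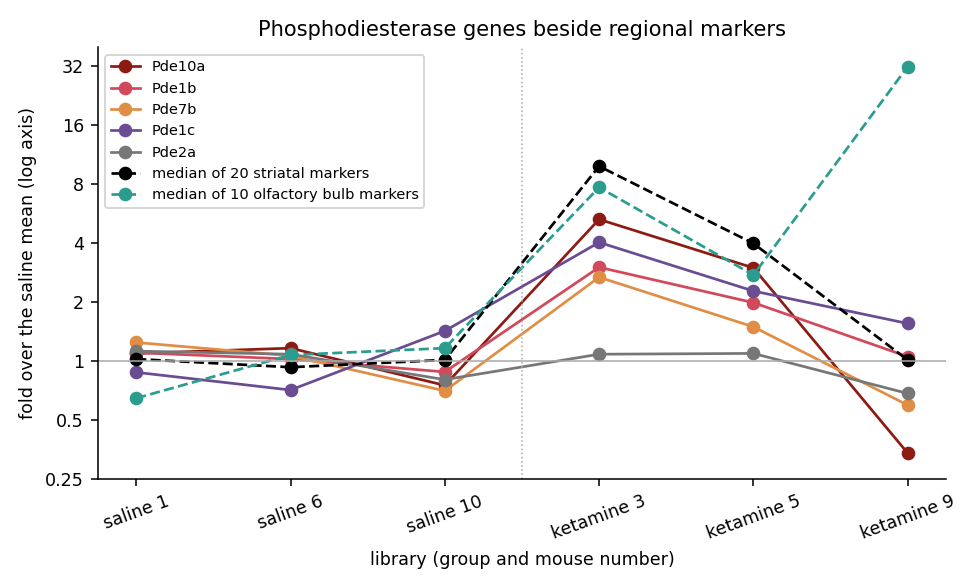
Fold over the saline mean (log axis) in each library for 5 phosphodiesterase genes (solid) and for the median of 20 striatal and 10 olfactory bulb markers (dashed). The lines only join the points of 1 item, since the mice have no order, and the dotted line parts saline from ketamine. Pde10a, Pde1b and Pde7b are highest in ketamine mouse 3, where the striatal median is 9.84, and Pde10a is at 0.338 in ketamine mouse 9, where the olfactory bulb median is 31.7. In ketamine mice 3 and 5 the olfactory bulb median is 7.67 and 2.74, and Pde10a is at 5.27 and 2.98.

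**Figure D4:**
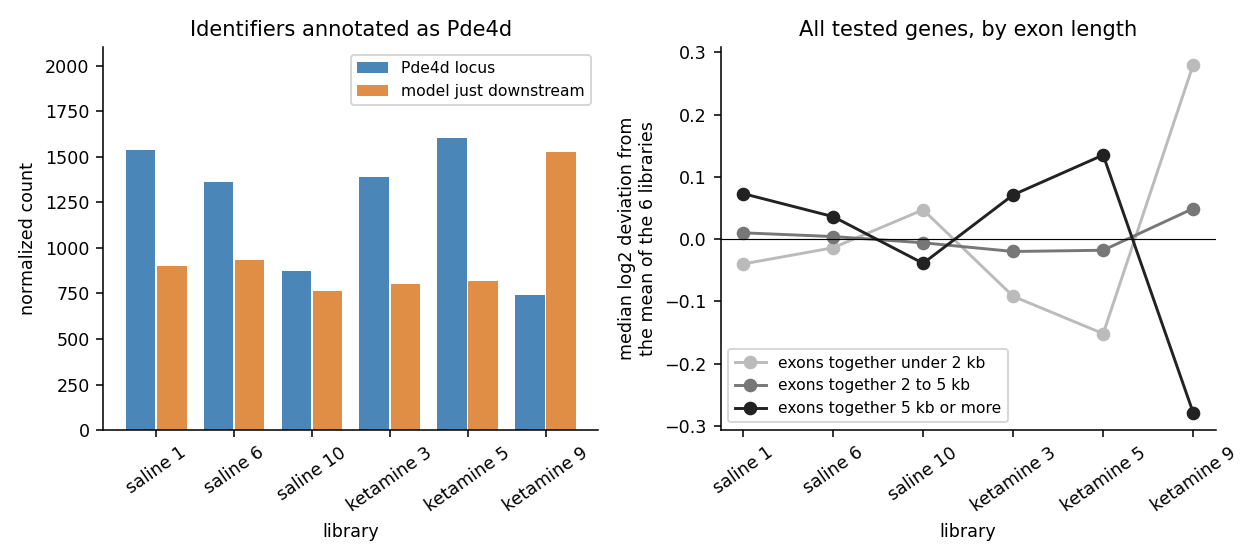
Left, normalized counts of the Pde4d locus (blue) and of the model just downstream of it (orange) in each library. The model exceeds the locus only in ketamine mouse 9, at 1525.5 against 743. Right, the median log2 deviation of all tested genes in 3 classes of exon length from the mean of the 6 libraries, which in ketamine mouse 9 is 0.28 for the shortest class and -0.279 for the longest.

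To compare levels between genes, reads were divided by exon length in kb and scaled by library size (RPKM). In saline mice the order of the mean levels was Pde2a (82.8 ± 11.8 RPKM, SD, n = 3), Pde1a (35.2 ± 10.6), Pde1b (31.2 ± 2.37), Pde4a (14.4 ± 1.28), Pde8b (14.3 ± 0.594), Pde4b (11.9 ± 2.03), Pde10a (5.96 ± 1.17), Pde7b (4.15 ± 0.989), Pde4d (3.47 ± 0.837) and Pde1c (0.475 ± 0.193). The saline ranges of neighbours in this order overlapped for Pde1a with Pde1b, Pde4a with Pde8b, Pde10a with Pde7b and Pde7b with Pde4d, while those of the other neighbours did not, as for Pde8b and Pde4b (13.8 to 15.0 against 9.55 to 13.4). This order depends on the length used. Per longest transcript in place of all exons, the saline mean of Pde4b was 29.1 ± 4.98, above Pde4a (23.7 ± 2.11) and Pde8b (19.9 ± 0.825), and that of Pde4d was 9.89 ± 2.39, beside Pde10a (9.73 ± 1.92) and above Pde7b (7.25 ± 1.73). Among all 21 catalytic phosphodiesterase genes Pde2a ranked first in 5 mice per exon length and in all 6 per longest transcript. In ketamine mouse 3 Pde1b stood at 99.4 against 94.7 for Pde2a per exon length, and at 101 against 105 per longest transcript. Per exon length Pde10a ranked 7, 7 and 8 in saline mice and 3, 4 and 12 in ketamine mice 3, 5 and 9.

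The summed level of the 21 genes was 242, 230 and 192 RPKM in saline mice and 342, 287 and 172 in ketamine mice (exact permutation p = 0.5, 0.611 adjusted over 11 comparisons). The groups overlapped because ketamine mouse 9 was lowest. The 10 members made up 88.2 to 93.9% of this sum in every mouse. Pde1b held 13.7, 13.9 and 14.9% of the sum in saline and 29.1, 22.0 and 20.6% in ketamine mice, so here all 3 ketamine mice were above the saline mice. Pde2a held 37.0, 39.0 and 36.0% in saline and 27.7, 32.4 and 35.4% in ketamine mice, with all 3 below. Pde1a (15.7 ± 3.06% in saline, 9.76 ± 1.97% in ketamine) and Pde8b (6.51 ± 0.583% and 5.67 ± 0.0571%) were also lower in all 3 ketamine mice, and Pde1c (0.223 ± 0.12% and 0.475 ± 0.103%) was higher. For each of these 5 shares the exact permutation p was 0.1, the smallest possible, and 0.22 after adjustment over the total and 10 shares. The shares of 1 mouse sum to 100%, so a larger share of one gene lowers the others. The same 5 shares did not overlap between groups per longest transcript. Shares were not formed for other sets of genes, so no background count stands beside these 5. In normalized counts, a different measure, 1 of the 10 members and 10.3% of tested genes did not overlap.

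Pde10a held 2.59, 3.02 and 2.43% of the sum in saline and 9.77, 6.37 and 1.26% in ketamine mice, and the groups overlapped (exact permutation p = 0.4, 0.611 adjusted). Pde10a, Pde1b and Pde7b together, a sum formed after their values were seen and therefore given without a test, held 18.3, 18.9 and 18.9% in saline and 42.3, 30.6 and 23.4% in ketamine mice. The 5 cAMP-specific members held 21.8 ± 0.156% in saline and 20.9 ± 2.45% in ketamine mice.

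**Figure D5:**
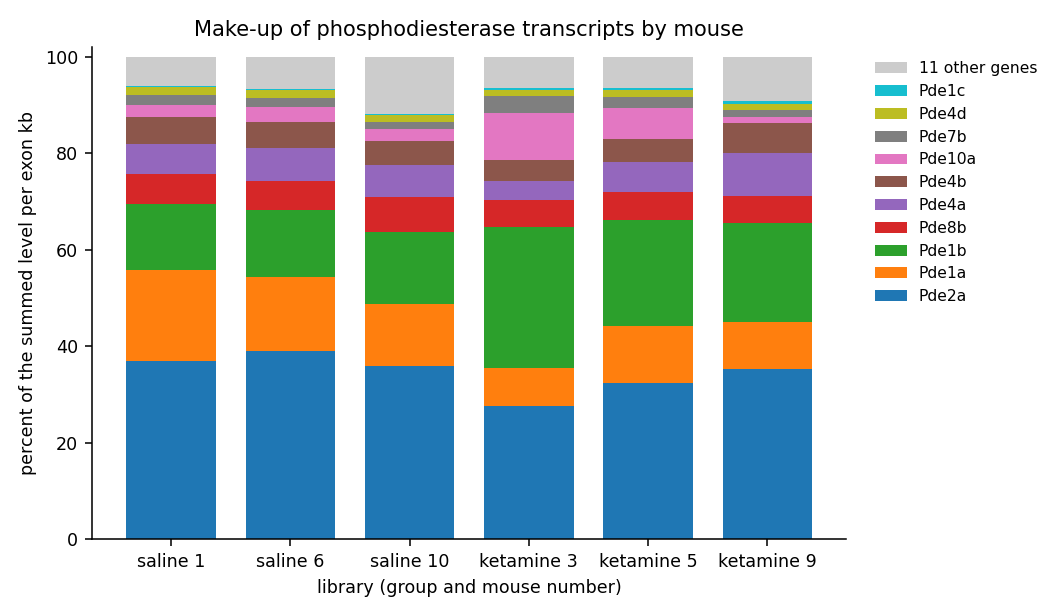
Percent of the summed phosphodiesterase level, in RPKM, held by each of the 10 genes and by the 11 other genes together (grey), 1 bar per library. The Pde1b segment is 13.7 to 14.9% in saline and 20.6 to 29.1% in ketamine mice, and the Pde10a segment reaches 9.77% in ketamine mouse 3.

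Of the 11 other catalytic phosphodiesterase genes, 9 were tested and 0 were called by limma, edgeR or DESeq2. By these tools 0, 2 and 0 had an unadjusted p under 0.05, against 5.81%, 6.24% and 6.54% of all tested genes. Pde9a, a high-affinity cGMP-specific enzyme, held 323, 322 and 309.7 normalized counts in saline and 488, 387 and 366 in ketamine mice, without overlap (log2 fold change 0.37, SE 0.16, adjusted p = 0.865 by limma). Pde6c, the cone photoreceptor form, was near the detection limit, at 22.0, 17.4 and 7.69 in saline and 0.98, 7.53 and 6.35 in ketamine mice. Pde8a, a cAMP-specific relative of Pde8b, held 306.5, 258 and 1093 in saline and 662, 413 and 339 in ketamine mice. Its highest library was saline mouse 10, which was also highest for 8 oligodendrocyte markers (391778 summed counts against 46812 to 167529 in the other 5). The cGMP-inhibited Pde3a (11.8 to 110.6 normalized counts over the 6 mice) and the dual-specificity Pde11a (71.6 to 218.3) were highest in ketamine mouse 3 and lowest in mouse 9, as Pde10a was. Pde3b (375 to 451), Pde4c (51.7 to 110.1), Pde5a (218.3 to 362) and Pde7a (809 to 1052) overlapped between groups. The photoreceptor genes Pde6a and Pde6b were too low to be tested, with at most 9.79 counts.

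Around the phosphodiesterases, 73 genes of cyclic nucleotide signalling were examined, of which 71 were tested. None was called by limma, edgeR or DESeq2, and 5, 5 and 7 had an unadjusted p under 0.05 by these tools. Over all tested genes the shares at this unadjusted p were 5.81%, 6.24% and 6.54%. By limma 28 were higher and 43 lower in ketamine mice (39.4% higher, median log2 fold change -0.06), against 47.0% higher over all tested genes. Adenylyl cyclases, the source of cAMP, were higher for 2 and lower for 7 of 9, and anchoring proteins that hold protein kinase A and phosphodiesterases in place were higher for 2 and lower for 13 of 15. Protein kinase A subunits were higher for 6 and lower for 3 of 9. Directions of single genes here did not pass the test.

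The 5 pathway genes with the smallest p by limma all had groups that did not overlap, which picking by p favours. Of the 71 tested, 4 did not overlap with ketamine above saline and 3 with ketamine below. Over all tested genes these shares were 5.69% and 4.66%, or 10.3% in either direction. Cngb1, a subunit of cyclic nucleotide-gated channels, was low, at 2.87, 4.83 and 8.79 normalized counts in saline and 53.8, 32.0 and 10.9 in ketamine mice (log2 fold change 2.20, SE 0.66, adjusted p = 0.628 by limma). Adcy1, the calcium-stimulated adenylyl cyclase, held 29639.5, 23038 and 27593 in saline and 13573, 22042 and 6676 in ketamine mice (log2 fold change -1.08, SE 0.40, adjusted p = 0.784 by limma). Its lowest library was ketamine mouse 9. Rapgef4, which encodes the cAMP-activated exchange factor Epac2, was lower (log2 fold change -0.65, adjusted p = 0.768 by limma), as was the anchoring protein Akap7 (-0.47, 0.713). The channel subunit Cnga2 was higher (log2 fold change 1.25, adjusted p = 0.848 by limma). It was low too, at 9.58, 9.65 and 5.49 in saline and 13.7, 39.5 and 15.4 in ketamine mice. Adcy5, the adenylyl cyclase of striatal neurons and one of the 20 striatal markers, held 4721, 4441 and 3856 in saline and 15491.5, 9401 and 3231 in ketamine mice, and the ketamine mice fell in the order seen for Pde10a.

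Removing saline mouse 10 and ketamine mouse 9 together changed the calls. With 2 mice a group, 3 of the 10 members (Pde1b, Pde1c and Pde10a, all higher) and 7 of the 71 pathway genes passed an adjusted p of 0.05 by limma, against 3.64% of all tested genes, or 2.85% higher. The ketamine mice kept were 3 and 5, those with raised striatal markers. The mice removed were the lowest libraries for 7 of the 10 members, Pde10a included but not Pde1b or Pde1c. These calls are therefore not independent of the values tested. Without mice 3 and 5 instead, 0.0% of tested genes and 0 members passed.

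Over the 6 libraries, the genes whose log2 values ran most alike with the 3 widest-ranging members were as follows. For Pde10a they were Nup50 (Pearson r = 0.993), Bend4 (0.992) and the potassium channel gene Kcnn3 (0.991), and 2.27% of tested genes had an r over 0.9. For Pde1c they were Lhfpl3 (0.997), Gm5607 (0.996) and Adarb2 (0.993), and for Pde7b Xiap (0.996), Mdga2 (0.991) and Ppp2r5d (0.991). The shares with an r over 0.9 were 1.78% for Pde1c and 1.84% for Pde7b. An r does not reflect the size of a change. Nup50 ranged from 1028 to 1335 normalized counts and Kcnn3 from 50.8 to 329, against 764 to 11922 for Pde10a. Xiap ranged from 2565 to 3998, against 538 to 2418 for Pde7b. Each r rests on 6 libraries that share the group, the marker and the length differences given above, and is a description.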

How the data were processed

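Total RNA of 6 mice was sequenced as 100 bp paired-end reads. The deposited table holds the authors' normalized counts: reads aligned to mm9 with TopHat2 (2.0.11), counted per gene with HTSeq and divided by DESeq2 size factors (a signal scaled by library). The annotation, strand setting and any filter are not given in the sources used here. Whole reads were recovered from the step between low values, 100.0% of values lying within 0.1 read of a whole number.

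The main test was limma (3.58.1, R 4.3.3, trend in the prior variance) on log2(normalized count + 1) over genes with a mean of at least 10, two-sided, with Benjamini-Hochberg adjustment over all tested genes and a threshold of 0.05. A pseudocount understates the change of low genes. Exact permutation tests were run over mice. edgeR (4.0.16, quasi-likelihood) and DESeq2 (1.42.0) on recovered reads were alternatives, beside other pseudocounts, filters, scalings and left-out mice. The fits were tested on simulated data. Levels between genes used exon lengths from GENCODE M1. The table carries a symbol for 20515 genes, and 16730 more were named from a gene table. Where a symbol stood on several identifiers (Calm3 on all 3 calmodulin genes), the GENCODE M1 name decided. Promoters came from RefSeq.

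Each library is 1 mouse, so the p-values set group differences against the spread between these libraries. In that spread mouse, dissection and library preparation cannot be told apart. The members, gene lists and alternatives were chosen with earlier results of these data known. Length classes, folds by mouse and promoter motifs were added after the values were seen. Named were all members, other phosphodiesterase genes with a mean of at least 10, the 5 pathway genes with the smallest limma p, and the 3 closest profiles of the 3 widest-ranging members. Other genes named (Adcy5, Pde6a, Pde6b and markers) were chosen after their values were seen. No protein sequence was used here.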

Additional observations from a re-analysis of the deposited data

How the results depend on the processing

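No paired analysis was possible because the mouse numbers differ between the groups. With another pseudocount, filter, scaling or variance prior, 0 genes, members or pathway genes were called by limma, and the median log2 fold change of all genes stayed between -0.023 and 0.0. DESeq2 called 182 genes (145 higher), none of them a member. Leaving out 1 mouse at a time gave 0 to 1 called genes (1 without ketamine mouse 5 and 1 without ketamine mouse 9). Without saline mouse 10 and ketamine mouse 9 together, 587 genes, 3 members and 7 pathway genes were called.

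The sign of some log2 fold changes depended on the mice. Without ketamine mice 3 and 5 it was -1.54 for Pde10a, -0.71 for Pde7b, -0.26 for Pde4b and -0.016 for Pde4a. Without saline mouse 10 and ketamine mouse 9 it was 0.20 for Pde8b, 0.042 for Pde4d and -0.043 for Pde4a. By edgeR it was 0.001 for Pde4d and 0.026 for Pde8b, and by DESeq2 0.017 for Pde8b. With 1 mouse left out it ran from -0.24 to 0.13 for Pde2a, -0.091 to 0.14 for Pde4a, -0.10 to 0.24 for Pde4b, -0.29 to 0.29 for Pde4d, -0.046 to 1.04 for Pde7b and -0.25 to 0.26 for Pde8b. Pde1b and Pde1c stayed above 0 and Pde1a below 0 in every alternative run. The log2 ratio of the summed level was -0.36 without ketamine mice 3 and 5, where the shares differed by 2.36 (Pde4a), 0.804 (Pde4b), -0.303 (Pde7b) and -1.42 (Pde10a) percentage points. With 1 mouse left out, the share of Pde4a differed by -1.42 to 1.04 and that of Pde4b by -0.72 to 0.178 percentage points, each above 0 only without ketamine mouse 3.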
